A study of Mus musculus with 5 samples.

Results

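The epidermal growth factor (EGF) receptor genes and the genes of their ligands were examined for JunB binding and for an active histone mark in mouse muscle stem cells (MuSCs). The set held 10 genes, which were 3 receptors (Egfr, Erbb2 and Erbb3) and 7 ligands (Egf, Tgfa, Hbegf, Areg, Ereg, Btc and Nrg1), out of 55413 genes of the GENCODE M21 annotation on chromosomes 1 to 19, X and Y, of which 21938 are protein-coding. The genes were chosen as a named family, and the rule for their peaks used position only. Around each gene, peaks were taken from every library when they lay within 50 kb of any annotated transcription start site (TSS) of that gene, and they were split into those within 3 kb, called promoter peaks here, and those 3 to 50 kb away.

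The study mapped the transcription factor JunB on chromatin by CUT&RUN-seq, in which an antibody tethers a nuclease that cuts out the DNA beside the bound protein. There were 3 JunB libraries of MuSCs from young mice, named young 1, 2 and 3, and 1 JunB library of MuSCs from aged mice. In the remaining library the antibody was directed at H3K27ac, an acetylated histone that marks active promoters and enhancers, in MuSCs of mice whose age the labels leave out. All cells were MuSCs taken freshly from muscle, no genetic change or drug is attached to a library in the sample labels, and sex and exact ages are not given for these libraries in the sources used here. The study's methods name C57BL/6 as the strain of its purchased aged mice, without tying it to a library. With 1 aged library, age and library cannot be told apart, so ages were not tested against each other. Where a young mean is given, its SD covers the 3 young libraries. In a peak sheet among the study's supplements, held here in part, coordinates of the library labelled aged stand under a young heading and those of young 1 under an aged one. The sample labels were followed, and the study's own text also assigns the longest JunB list to the aged mice.

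The JunB lists held 9534, 4884 and 3863 peaks in young 1, 2 and 3, 14123 peaks in the aged library, and 39865 in the H3K27ac library. The weakest peak listed had a −log10 p of 3.01 in young 1 and in the aged library, but 5.33 in young 2 and 5.22 in young 3. The lowest −log10 q (from p adjusted for multiple testing) was 0.405 in young 1 and 0.672 in the aged library. It was 2.26 in young 2, 2.10 in young 3 and 2.04 in the H3K27ac library, so the lists do not reach equally far down. Peak lists carry no read counts, and the depth behind a single peak is unknown. As a check of the cell type, 7 of 10 MuSC marker genes had an H3K27ac peak within 3 kb of a TSS, beside 49.8% of all protein-coding genes. Pax7, Myf5 and Calcr of the MuSC list had none. With lists this short, the counts alone do not establish the cell type. Such a peak was also present at 1 of 6 immune markers (Csf1r), 2 of 4 endothelial and 1 of 4 fibro-adipogenic progenitor markers (Dcn). It was present at 2 of 4 pericyte and smooth muscle and 0 of 3 myofibre markers. The part of these other cells in any result was not tested.

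EGF receptors are receptor tyrosine kinases that pair on ligand binding and signal through the Ras-MAPK and PI3K-Akt pathways. Their ligands are made as membrane-anchored precursors that metalloproteases release, and several are induced by stress and growth signals. In skeletal muscle, Egfr signalling has been tied to asymmetric division of MuSCs, and neuregulin signalling through ErbB receptors to the neuromuscular junction and muscle spindles. JunB belongs to the AP-1 family, whose Jun-Fos dimers favour the letters TGACTCA, read as TGAGTCA on the opposite strand, while other dimers favour the cAMP response element (CRE), TGACGTCA.

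The sequences around 5 JunB summits are shown first, on the plus strand of mm10 (GRCm38). They are in lower case, with AP-1 letters in capitals where present. The first is an Egfr intronic region with AP-1 letters at the summit of young 1. Its window was centred on that summit because of the letters, although the −log10 p was 6.55 there and 9.20 in young 2. The regions with the highest −log10 p at Egfr, Erbb3 and Egf follow. The Erbb3 promoter sequence lies just upstream of the Erbb3 TSS and was added after its values had been seen, because every JunB library had a peak there. No sequence is shown for Hbegf.
Egfr intron, AP-1 at a summit, chr11:16800763-16800943: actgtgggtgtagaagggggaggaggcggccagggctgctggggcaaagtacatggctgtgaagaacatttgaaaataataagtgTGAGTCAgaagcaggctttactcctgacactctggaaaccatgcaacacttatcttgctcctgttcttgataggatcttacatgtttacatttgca
Egfr intron, strongest region, chr11:16849083-16849263: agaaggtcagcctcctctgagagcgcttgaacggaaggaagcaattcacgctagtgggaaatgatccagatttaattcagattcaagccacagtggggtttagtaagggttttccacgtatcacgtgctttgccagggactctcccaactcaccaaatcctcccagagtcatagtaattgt
Erbb3 window, strongest region, at the Pa2g4 promoter, chr10:128566109-128566289: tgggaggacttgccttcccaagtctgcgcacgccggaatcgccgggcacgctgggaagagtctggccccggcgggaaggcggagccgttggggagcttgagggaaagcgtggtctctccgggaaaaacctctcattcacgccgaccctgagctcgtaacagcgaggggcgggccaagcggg
Erbb3 promoter, chr10:128589726-128589906: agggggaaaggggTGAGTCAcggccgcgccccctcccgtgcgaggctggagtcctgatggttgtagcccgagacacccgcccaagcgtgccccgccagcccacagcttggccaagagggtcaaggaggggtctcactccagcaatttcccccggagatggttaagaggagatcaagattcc
Egf, downstream intergenic region, chr3:129657201-129657381: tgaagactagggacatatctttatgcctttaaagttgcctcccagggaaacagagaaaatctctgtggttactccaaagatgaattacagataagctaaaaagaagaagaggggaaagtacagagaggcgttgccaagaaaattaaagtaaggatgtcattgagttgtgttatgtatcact

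JunB peaks lay near 4 of the 10 genes, namely the receptors Egfr and Erbb3 and the ligands Egf and Hbegf. The other 6 genes (Erbb2, Tgfa, Areg, Ereg, Btc and Nrg1) had no JunB peak within 50 kb in any library. Young 1, 2 and 3 held 8, 6 and 3 peaks near the set, which averaged 5.67 ± 2.52 (SD, n = 3). The aged library held 16. The aged count was above every young count, but the aged list was also the longest. Per 10000 peaks on chromosomes 1 to 19, X and Y the counts were 8.52, 12.5 and 7.89 in young 1, 2 and 3 and 11.4 in the aged library, which put the aged value inside the young range. When the 3863 strongest peaks of each list were taken, a number set by the shortest list after the data had been seen, 5, 4 and 3 young peaks and 5 aged peaks remained.

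**Figure D1:**
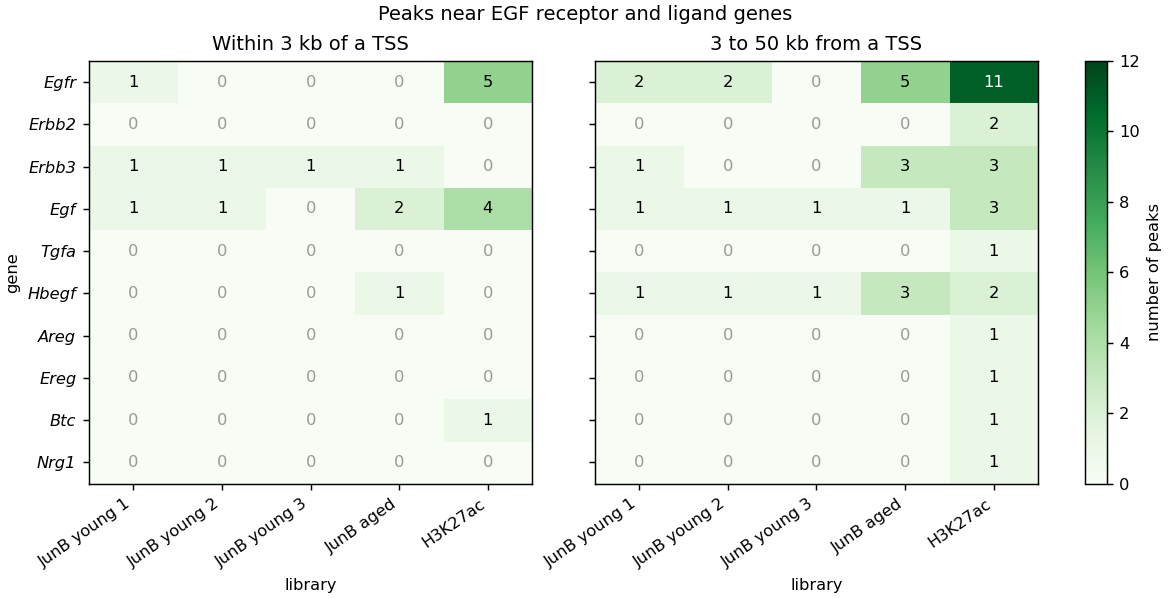
Number of peaks of each library (columns) near each gene (rows), within 3 kb of a TSS on the left and 3 to 50 kb from a TSS on the right; darker cells hold more peaks. JunB peaks occur near Egfr, Erbb3, Egf and Hbegf, while H3K27ac peaks occur near all 10 genes, with 16 of them around Egfr.

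Within 3 kb of a TSS, a JunB peak was present at 3 of the 10 genes in young 1 (Egfr, Erbb3 and Egf; 11.0% of all protein-coding genes), at 2 in young 2 (Erbb3 and Egf; 7.74% of all), and at 1 in young 3 (Erbb3; 5.91% of all). The aged library had one at 3 genes (Erbb3, Egf and Hbegf), against 23.9% of all protein-coding genes. Taking any JunB library, 4 of 10 genes had a promoter region, against 25.8% of all genes. Only Erbb3 had a promoter region with a peak in all 4 libraries, which 4.32% of all genes had. With 10 genes, each of these counts turns on 1 or 2 genes.

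Out to 50 kb, 4, 4 and 3 of the 10 genes had a JunB peak in young 1, 2 and 3, beside 40.4%, 27.5% and 23.4% of all protein-coding genes. In the aged library 4 genes had one, against 58.4% of all, and for any library the count was also 4, against 64.5%. A region with a peak in all 4 libraries lay near 3 genes (Erbb3, Egf and Hbegf), against 17.2% of all genes. Joined across libraries, the JunB peaks near the set formed 17 regions, or 11.5 per Mb of window (1.48 Mb), beside 13404 regions in the 1340 Mb of window of all protein-coding genes. Egfr held 6 of the 17, Erbb3 and Hbegf 4 each and Egf 3.

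**Figure D2:**
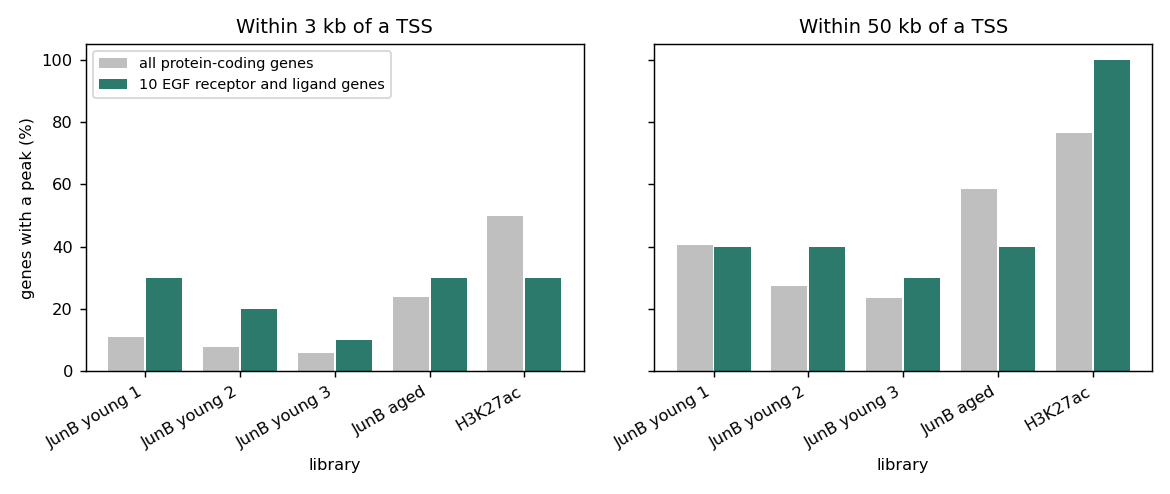
Percentage of genes with a peak of each library within 3 kb (left) or 50 kb (right) of a TSS, for all 21938 protein-coding genes (grey) and the 10 EGF receptor and ligand genes (green). At 50 kb the aged JunB library reached 58.4% of all genes and 4 of the 10, whereas H3K27ac reached 76.6% of all genes and all 10.

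Of the 17 regions, 9 had a peak in 1 library, 3 in 2, 2 in 3 and 3 in all 4 libraries (52.9%, 17.6%, 11.8% and 17.6%). The same shares among all 18879 JunB regions were 65.8%, 12.7%, 8.51% and 13.1%. The aged library contributed to 16 of the 17, and 1 (5.88%) lacked an aged peak, beside 25.8% of all regions. The aged library was the only source of 8 (47.1%), close to the 45.0% of all regions that came from it alone. An H3K27ac peak overlapped 9 of the 17 (52.9%), against 42.6% of all regions, which include regions more than 50 kb from a protein-coding TSS. Within 3 kb of a TSS, 3 of 5 were overlapped (60%), beside 65.7% of all regions within 3 kb of a protein-coding TSS. At 3 to 50 kb, 6 of 12 were (50%), beside 36.4% of all regions at that distance. By library, 5 of 8, 4 of 6 and 1 of 3 peaks near the set in young 1, 2 and 3 overlapped H3K27ac (62.5%, 66.7% and 33.3%). The young mean was 54.2% ± 18.2 (SD, n = 3), and in the aged library 8 of 16 overlapped it (50%). The same share over all peaks of each library was not computed.

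Erbb3 encodes a receptor for neuregulins that has little kinase activity of its own and signals through its dimer partner. It was the gene of the set whose promoter had a JunB peak in every library. The merged region, chr10:128589729-128590260, began 77 bp upstream of the only annotated TSS (minus strand, position 128589652). Fold enrichment over the local background was 7.57, 8.40 and 7.30 in young 1, 2 and 3 and 7.92 in the aged library, with a −log10 p of 14.7, 17.1, 11.1 and 14.4. The aged value lay within the young range on both scales, and the 4 summits spread over 121 bp. Relative to the median peak of the same library, which is lower where a list holds more weak peaks, the fold enrichment was 1.46, 1.08 and 0.901 times in young 1, 2 and 3 and 1.61 times in the aged library, so the peak was close to the median in young 2 and 3 and above it in the others.

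AP-1 letters in the Erbb3 promoter sequence shown above (TGAGTCA, chr10:128589739-128589745) lay 87 bp upstream of the TSS, near the edge of the region. Their centre was 74, 132, 145 and 195 bp from the summits of young 2, young 3, aged and young 1. They lay inside the peaks of young 1 and the aged library and outside those of young 2 and 3, which began at 128589759 and 128589763. No H3K27ac peak overlapped this region, and the nearest one was 23.0 kb away. Among all JunB regions within 3 kb of a protein-coding TSS with a peak in all 4 libraries, 79.5% overlapped H3K27ac, so Erbb3 was among the minority that did not.

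The 3 other regions in the Erbb3 window each met the TSS of a neighbouring gene. The strongest, chr10:128565967-128566550, was found in the aged library alone, with a fold enrichment of 8.68 and a −log10 p of 18.6, ranked 1009 of 14123. It overlapped the TSS of Pa2g4, which encodes the ErbB3-binding protein Ebp1, 973 bp past the 3′ end of Erbb3. A strong H3K27ac peak covered it, with a −log10 p of 38.2, ranked 647 of 39865. The remaining regions lay at Rpl41 (young 1 and aged, no H3K27ac) and at Rps26 (aged, H3K27ac), both genes of ribosomal proteins, with fold enrichments of 4.67 to 5.68.

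Egfr encodes the receptor for EGF, TGF-alpha, amphiregulin and related ligands. Its 5 annotated TSSs span a long gene, and it had the most JunB regions of the set, 6, all in its introns. Its window was 227 kb, beside 174 kb for Egf and 100 kb each for Erbb3 and Hbegf, so the counts cover unequal lengths. The first TSS (chr11, position 16752203, plus strand) was covered by an H3K27ac peak with a fold enrichment of 2.40 and a −log10 p of 11.2, yet no JunB peak lay within 3 kb of it. The nearest JunB peaks to this TSS were 48.2 and 48.4 kb away in young 1 and 2, 160 kb away in young 3 and 17.8 kb away in the aged library.

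The strongest Egfr region, chr11:16848964-16849502, lay 96.8 kb into the gene and 28648 bp upstream of the start of Egfr-203, a shorter protein-coding transcript. Its fold enrichment was 9.55 in young 1, 7.05 in young 2 and 6.01 in the aged library, with a −log10 p of 23.4, 13.4 and 10.1, and young 3 had no peak there. The young values were both above the aged value, and the 3 summits fell within 35 bp. Relative to the median peak of each library the values were 1.84, 0.911 and 1.22 times, which put the aged peak between the young ones. Within its own library the peak ranked 1373 of 9534, 3018 of 4884 and 3606 of 14123. The region lay wholly inside an H3K27ac peak, and no AP-1 letters were found in it.

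A second Egfr intronic region, chr11:16800406-16801025, lay 48.2 kb from the first TSS and was found in the same 3 libraries. Here the fold enrichment was 4.41 in young 1, 5.67 in young 2 and 3.87 in the aged library, below the median peak of each. An H3K27ac peak covered the whole region. The AP-1 letters shown above (chr11:16800848-16800854) had their centre 2 bp from the summit of young 1, 135 bp from that of young 2 and 254 bp from that of the aged library, so the libraries did not place the summit alike. The only Egfr promoter peak was a weak one of young 1, with a fold enrichment of 3.32 and a −log10 p of 3.96, which lay 400 bp upstream of the start of the processed transcript Egfr-204 and overlapped H3K27ac.

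The 3 aged-only regions made up the rest at Egfr. They lay 17.8, 39.2 and 114 kb from the first TSS, with fold enrichments of 4.44, 4.88 and 4.67. The first overlapped H3K27ac and the others did not. In all, 4 of the 16 H3K27ac peaks around Egfr overlapped a JunB peak, beside 9 of 35 (25.7%) for the whole set and 20.1% of the H3K27ac list.

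Erbb2 encodes the ligand-less partner receptor that pairs with the other family members. No JunB peak lay within 50 kb of any of its 3 TSSs. The nearest was an aged peak 56.2 kb upstream with a fold enrichment of 6.23, just beyond the limit, and in young 1, 2 and 3 the nearest peaks lay 161, 162 and 282 kb away. The mark H3K27ac was found 11617 and 26573 bp upstream but not within 3 kb.

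**Figure D3:**
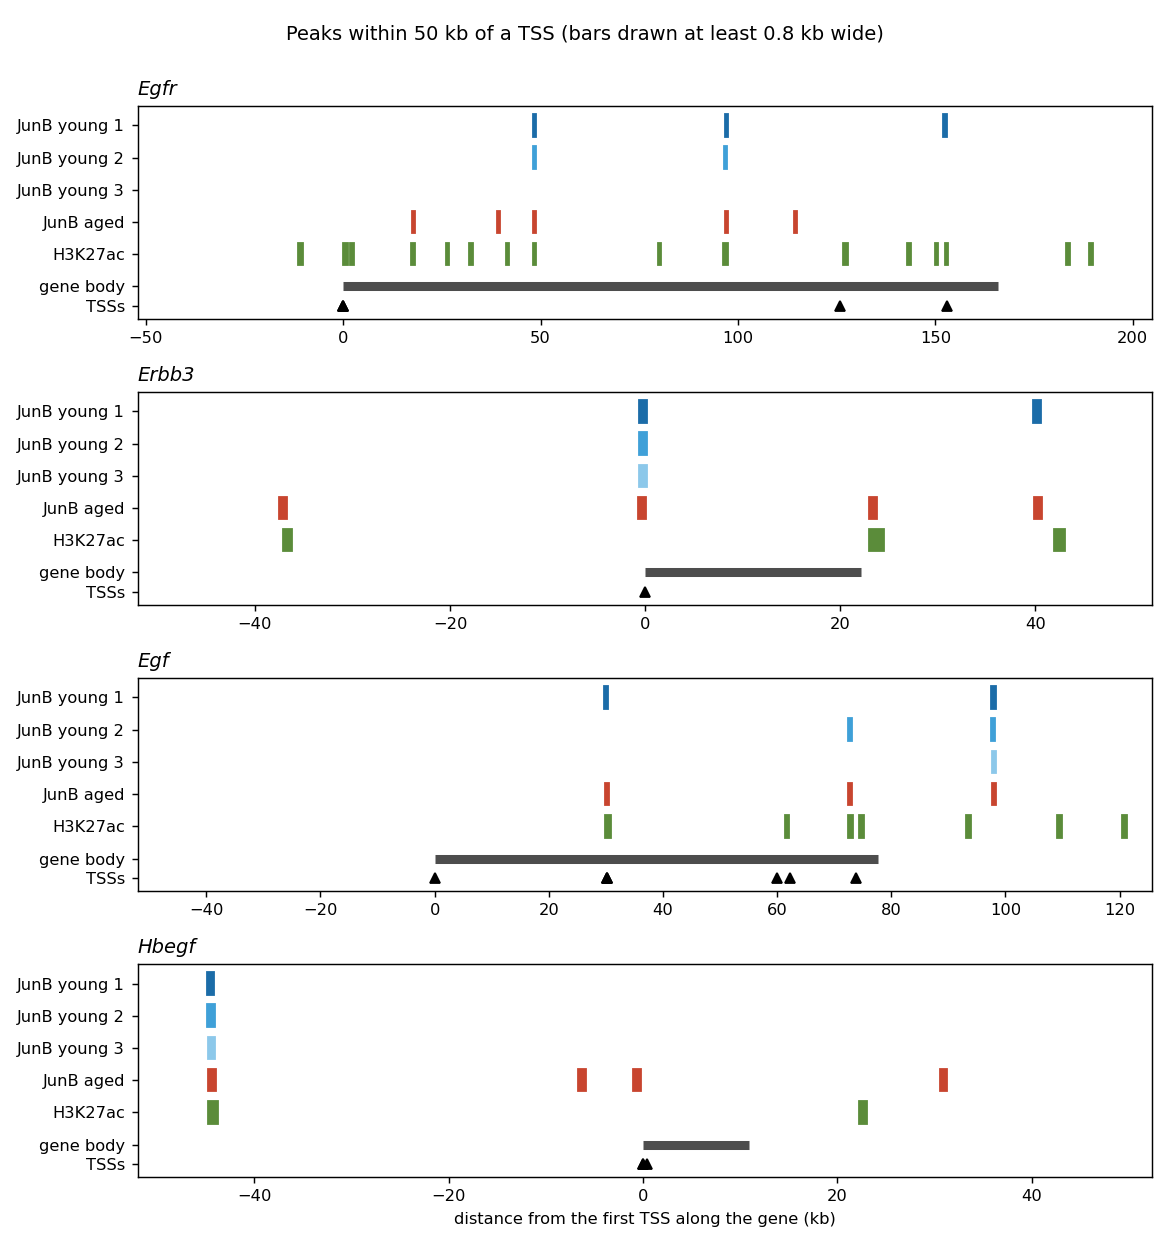
Peaks of the 5 libraries (rows) along Egfr, Erbb3, Egf and Hbegf, by distance from the first TSS in the direction of transcription (kb); grey bars are gene bodies and triangles TSSs. All 4 JunB libraries have peaks in the merged regions that begin 77 bp upstream of Erbb3 and 43.9 kb upstream of Hbegf. The same holds for the region downstream of the 3′ end of Egf, and the first TSS of Egf has no peak within 3 kb.

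Egf encodes the founding ligand of the family. It had the strongest JunB region of the set, chr3:129657113-129657817, in every library. Fold enrichment was 12.2, 13.5 and 15.1 in young 1, 2 and 3 and 10.8 in the aged library, with a −log10 p of 35.2, 44.7, 38.5 and 24.0. The aged value was the lowest on both scales. Relative to the median peak of each library it was 2.34, 1.74 and 1.86 times in the young libraries and 2.20 times in the aged one, within the young range. The young 1, 2 and 3 peaks ranked 753 of 9534, 486 of 4884 and 310 of 3863, and the aged peak 527 of 14123. That is 7.90%, 9.95% and 8.02% down the young lists and 3.73% down the aged one, although the lists do not reach equally far down. The 4 summits fell within 48 bp.

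This region is intergenic. It lay 97.5 kb from the first Egf TSS, 19.7 kb past the 3′ end of Egf and 18.6 kb from the body of Elovl6, a fatty acid elongase gene. Its place among the Egf regions rests on a transcript with a retained intron, Egf-203, whose start is 23729 bp away. No H3K27ac peak overlapped it, and the nearest was 3640 bp away, whereas 64.0% of all 4-library regions 3 to 50 kb from a protein-coding TSS overlapped H3K27ac. Neither AP-1 nor CRE letters were found in it.

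The promoter regions of Egf lay at internal starts, and none was within 3 kb of the first TSS (position 129755316, minus strand), where H3K27ac was also missing and its nearest peak was 29.8 kb away. A region at chr3:129724860-129725372, which spans the starts of the shorter transcripts Egf-209, Egf-204 and Egf-202, had a fold enrichment of 4.98 in young 1 and 4.23 in the aged library. It lay inside an H3K27ac peak with a −log10 p of 27.2, and held CRE letters 168 bp from its strongest summit. The other, chr3:129682387-129682671, lay 841 bp upstream of Egf-203, with a fold enrichment of 6.14 in young 2 and 4.49 in the aged library, also inside H3K27ac. All 4 peaks were below the median of their libraries, and the young libraries did not share either region.

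Hbegf encodes heparin-binding EGF-like growth factor, an early-response ligand. A promoter peak was found in the aged library alone, chr18:36516282-36516541, 477 bp upstream of the first TSS, with a fold enrichment of 4.67 and a −log10 p of 6.21. It ranked 8689 of 14123 in the aged list and did not overlap H3K27ac. A −log10 p of this size is above the weakest peaks listed in each young library, at 3.01, 5.33 and 5.22, but the depth behind a missing peak is unknown.

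A stronger region in the Hbegf window, chr18:36559709-36560696, lay 43.9 kb upstream at the TSS of Ankhd1 and was found in every library. Fold enrichment was 6.33, 7.19 and 7.02 in young 1, 2 and 3 and 9.02 in the aged library, with a −log10 p of 11.8, 13.7, 10.8 and 23.5. The aged peak was above all young peaks on both scales, and it ranked 547 in its list, beside 3211, 2966 and 2820 in young 1, 2 and 3, although ranks come from lists of unequal length. H3K27ac covered 92.8% of the region. The 2 further regions, aged only and without H3K27ac, lay 6063 bp upstream and 30.8 kb downstream of the first TSS, with fold enrichments of 4.28 and 4.76.

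**Figure D4:**
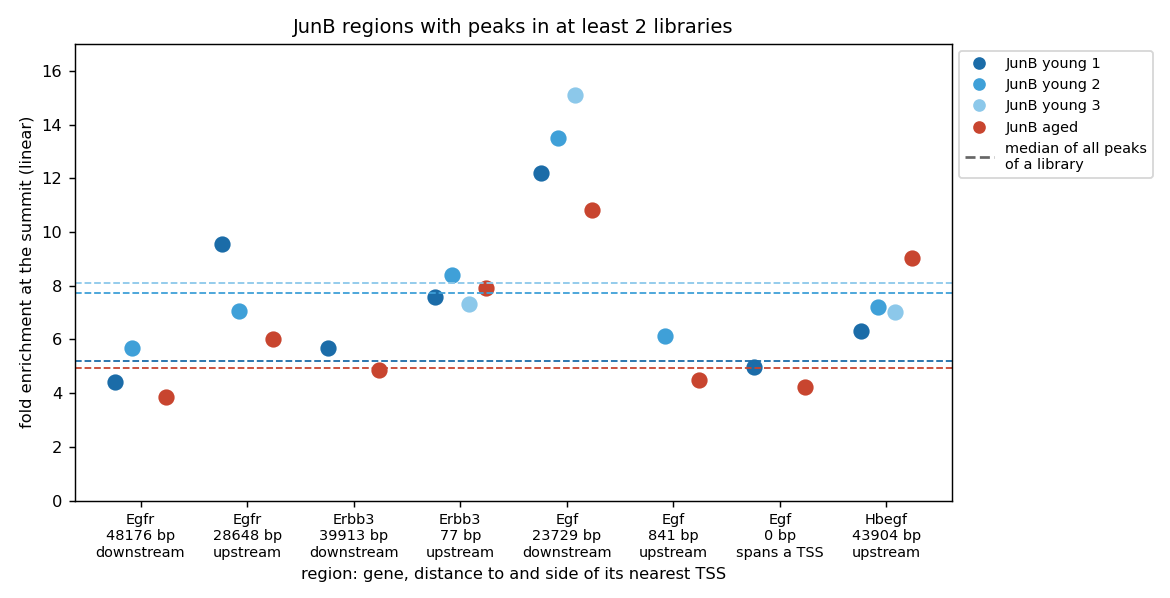
Fold enrichment at the summit (linear axis) of the 8 JunB regions with a peak in at least 2 libraries, 1 point per library; dashed lines give the median of all peaks of each library in its colour. The Egf downstream region stands highest, from 10.8 in the aged library to 15.1 in young 3, and the Hbegf upstream region is the one where the aged point, 9.02, is above 3 young points.

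The remaining ligands had no JunB peak within 50 kb. Tgfa encodes TGF-alpha, and its nearest JunB peak was 64.2 kb upstream in young 1, with 186 kb in young 2 and 3 and 153 kb in the aged library. Btc encodes betacellulin, with a peak 73.6 kb downstream in young 2 and 3, but 468 and 476 kb away in young 1 and the aged library. Areg and Ereg, neighbouring genes on chromosome 5 for amphiregulin and epiregulin, had their nearest JunB peaks 163 to 239 kb and 166 to 174 kb away. Nrg1 encodes neuregulin, has a long gene and 15 distinct TSSs, and its nearest JunB peaks lay 252 kb from a TSS in young 1 and the aged library and 699 kb in young 2 and 3.

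H3K27ac peaks were found more widely than JunB peaks. All 10 genes had an H3K27ac peak within 50 kb, against 76.6% of all protein-coding genes, but within 3 kb only Egfr, Egf and Btc did, 3 of 10 against 49.8%. The peak at Btc spanned its promoter, with a fold enrichment of 3.60 and a −log10 p of 11.0. Tgfa and Nrg1 had 1 peak each, 40.6 kb upstream and 19650 bp downstream of a TSS. A single peak between Areg and Ereg (chr5:91104121-91104735) lies in both windows and was counted once among the 35.

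Across the set, AP-1 letters lay within 50 bp of the strongest summit in 2 of 17 regions (11.8%), beside 3.90% of all 18879 regions. The 2 were aged-only regions without H3K27ac, at Egfr and Hbegf, with a −log10 p of 6.21 and 5.61. The Egfr region printed with AP-1 letters was not among them, as its strongest summit, of young 2, lay 135 bp from the letters. Anywhere in the region, AP-1 letters were found in 5 of 17 (29.4%), beside 25.2%. In windows of 181 bp, the length printed above, taken at the strongest summit, 4 of 17 held them. The share was 8.35% of all regions and 13.0% of the 2468 regions with a peak in all 4 libraries. The printed Egfr window with AP-1 letters, centred on the summit of young 1, is not among the 4. CRE letters occurred in 1 of 17 whole regions and in 1.78% of all. Both strands were read, and the AP-1 and CRE letters cannot be the same site. In the RefSeq promoter windows (GRCm38.p6, 300 bp) that matched 6 of the 10 genes, 7 windows in all, no AP-1 letters occurred, and 5.20% of 32851 promoter windows held them. The Areg window held CRE letters, and Erbb3 was not among the 6 genes. The median GC content of the regions was 46.5%, beside 48.6% for all regions.

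The limits of 3 and 50 kb left few peaks near them. The JunB promoter peak closest to the 3 kb limit was the aged Egf peak at 881 bp, and the first beyond it was the aged Hbegf peak at 6063 bp. Just inside 50 kb lay the young 2 peak of the second Egfr region at 48412 bp, with a fold enrichment of 5.67, and just outside it the aged peak at Erbb2 at 56158 bp.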

How the data were processed

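CUT&RUN-seq peak lists of MuSCs were analysed, from 3 young and 1 aged JunB library and 1 H3K27ac library, grouped by the sample titles. The series' design text names DMSO- and MVC-treated mice instead; the titles were used. Per the study's methods and the submitters' processing notes, the authors trimmed and filtered the reads and mapped them with Bowtie2 on mm10. Redundant reads were dropped, and MACS2 called peaks at a stated p of 0.001. The lowest −log10 p and −log10 q differ between the lists, so whether that cutoff alone shaped every list is unknown. Versions and any control library are not given in the sources used here. The deposited lists, 1 per library, hold the fold enrichment (a ratio to the local background) and the −log10 p and −log10 q of each peak, which are relative to their own library and served for ranking. Reads lost to duplicates or low depth would leave sites unlisted.

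Peaks within 50 kb of a GENCODE M21 TSS of a member were taken, split at 3 kb. Overlapping JunB peaks were merged, and overlap meant at least 1 bp. AP-1 and CRE letters were sought within 50 bp of summits (101 bp) and in whole regions. Sequences came from GRCm38.p6, where 7 of 7 RefSeq promoter windows of members matched. Python 3.11.15, numpy 2.4.6, pysam 0.24.0, samtools 1.23.1 and matplotlib 3.10.9 were used. Merging and overlap were tested on simulated data: for 5000 simulated intervals they gave the 3117 merged regions and 829 overlapping intervals that bedtools 2.31.1 gave. Members and lists were chosen with earlier results of these data known. Every member was named, with regions within 3 kb of a TSS, in at least 3 JunB libraries, or strongest of a member; others were summarised. Alternatives changed the windows, peak thresholds, TSS choice, merging and libraries. No test was made, since there was 1 aged library.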

Additional observations from a re-analysis of the deposited data

How the results depend on the processing

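Of 64 alternatives over 6 results, 55 stayed within 1.5 times the reported count or young mean, or, for the share overlapping H3K27ac, within 1 SD of the young libraries (18.2 percentage points), and 9 moved. The 17 JunB regions became 8 with a 20 kb window, 27 with a 100 kb window, 9 without the aged library and 6 with equal numbers of the strongest peaks. The 4 genes with a promoter region became 2 when only the first TSS of each gene counted and 1, Erbb3, with equal numbers. The share of all protein-coding genes under these 2 settings was not computed. The 4 genes with a region within 50 kb became 7 within 100 kb. The 16 aged peaks became 5 with equal numbers, and the young mean of 5.67 became 3.33 with the first TSS only. The share of regions overlapping H3K27ac ranged from 35.3% to 66.7%. Leaving out the aged library, the first TSS and equal numbers were chosen after seeing the data. No paired analysis was possible because the result comes from no test and the aged group holds 1 library.

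Each group beside the young one was 1 library, so the spread of aged JunB and of H3K27ac is unknown. A peak missing from a list was not told apart from one below that list's limit, and the lists stop at different −log10 p and −log10 q. Distance to a TSS does not say which gene a region acts on; several regions in these windows lie at the TSSs of other genes. No RNA measurement of these libraries was used.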

Other observations

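Of 20 further genes of the pathway, 9 had a JunB region within 3 kb and 14 within 50 kb, beside 25.8% and 64.5% of all protein-coding genes. None of the 5 other receptor and ligand genes (Erbb4, Epgn, Nrg2, Nrg3 and Nrg4) had one within 3 kb. Among sheddases and their partners, which release the ligands, 2 of 4 did: Rhbdf2 in young 1, young 2 and the aged library and Adam10 in the aged library. Among adaptors and effectors, which carry the signal to Ras, 4 of 6 did: Sos2 in young 1, young 2 and the aged library, Grb2 in young 1, 2 and 3, and Shc1 and Gab1 in the aged library. Among inhibitors, which return the receptors to rest, 3 of 5 did: Cblb, with a highest −log10 p of 15.6, Lrig1, with 9.10, and Cbl, with 4.76. Grb2 was the only gene among these 9 whose promoter regions came from young libraries alone. An H3K27ac peak lay within 3 kb of 15 of the 20 genes, including all 4 sheddases and partners and all 6 adaptors and effectors, beside 49.8% of all protein-coding genes.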
